A study of Mus musculus and Homo sapiens with 20 samples.

Results

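The CC chemokine genes Ccl2, Ccl7, Ccl11, Ccl12 and Ccl8 lie next to each other on mouse chromosome 11, and the accessible chromatin of this cluster was followed through control and vitamin B2-deficient hepatocytes. Accessibility came from ATAC-seq, in which the transposase Tn5 cuts into open DNA so that sequenced tags pile up there. Peaks listed for 12 hepatocyte libraries were merged where they overlapped by 1 bp, which gave 642948 regions on mm10. A region belongs to the cluster when, of all protein-coding gene bodies no more than 50 kb away, the closest is one of the 5 genes, and 82 regions met that rule. Of these, 19 had a peak in all 12 libraries and could be tested, out of 101575 such regions in the genome.

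The series holds 20 libraries, of which the 12 used here come from hepatocytes labelled AhR_flox, with a floxed allele of the gene for the aryl hydrocarbon receptor (AhR), a ligand-activated transcription factor. There were 4 groups of 3 libraries: control with Ad_Cont, B2_minus with Ad_Cont, control with Ad_Cre and B2_minus with Ad_Cre. All 4 carried the floxed allele and the label 4 weeks. B2_minus stands for vitamin B2 (riboflavin) deficiency, whose means the labels do not give, and Cre is the recombinase that removes DNA between loxP sites. The labels do not spell out Ad, the sex or age of the animals, the part of the gene that is floxed, or whether replicates came from separate animals or cultures. The p-values therefore measure only the spread between these libraries, which may be technical.

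CC chemokines are small secreted proteins that attract leukocytes along a concentration gradient through G protein-coupled receptors. In liver, CCL2 is the best known signal that draws monocytes in from the blood, and it is made by injured hepatocytes, Kupffer cells, stellate cells and endothelium. CCL7 and CCL12 also act on CCR2, the receptor for CCL2, whereas CCL11 (eotaxin) attracts eosinophils through CCR3. Transcription of these genes is induced by inflammatory signals, with NF-kB and AP-1 among the factors known for Ccl2.

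The lists held 200698 to 281141 peaks and 3897632 to 5557678 tags per library. Each list began at 6 to 8 tags, so a weaker site was missing from the list rather than recorded at 0. Values below are scaled tags, meaning a library's highest peak count in a region, corrected for library size by TMM and set to the depth of an average library. The 7 tested regions touching the Ahr gene body differed between Ad_Cre and Ad_Cont by log2 fold changes of -0.40 to 0.15 in control and -0.22 to 0.21 in B2_minus libraries. Of these 7, 0 passed an edgeR adjusted p of 0.05 in either comparison (1 in each at an unadjusted p under 0.05). With the floxed part unnamed, these values check nothing about the deletion. Hepatocyte marker genes held 93 tested regions, and all 8 of 8 such genes had at least 1. The same held for 9 of 9 stellate cell, 8 of 8 endothelial and 6 of 6 cholangiocyte marker genes. The count therefore does not set hepatocytes apart from those cell types.

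The cluster was chosen by the scaled tags at the lower end of Ccl7 in the 6 Ad_Cont libraries, where B2_minus values were lower, so every member value involving those libraries is a description without a test. The 6 Ad_Cre libraries share no library with that comparison, and the B2_minus effect was tested in them, although earlier results from all 12 libraries were known when the cluster was set.

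Open chromatin in the cluster was concentrated around Ccl2. Ccl2 (gene ID 20296, chromosome 11, 82035577 to 82037452) drew 49 of the 82 regions and 15 of the 19 tested ones. Ccl7 (20306, 82045712 to 82047525) had 9 regions, 2 of them tested. Ccl11 (20292, 82057832 to 82062955) had 7 regions with 1 tested, and Ccl8 (20307, 82115185 to 82116799) had 9 with 1 tested. Ccl12 (20293, 82101845 to 82103399) had 8 regions, each listed in a single library. The cluster from Ccl2 to Ccl8 spans 81.2 kb, and its regions reach over 138 kb. The 15 tested Ccl2 regions begin 28434 bp below the gene and end 1731 bp above it. Most of them lie below the gene, in the wide gap toward Asic2 that the nearest-gene rule assigns in part to Ccl2.

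**Figure D1:**
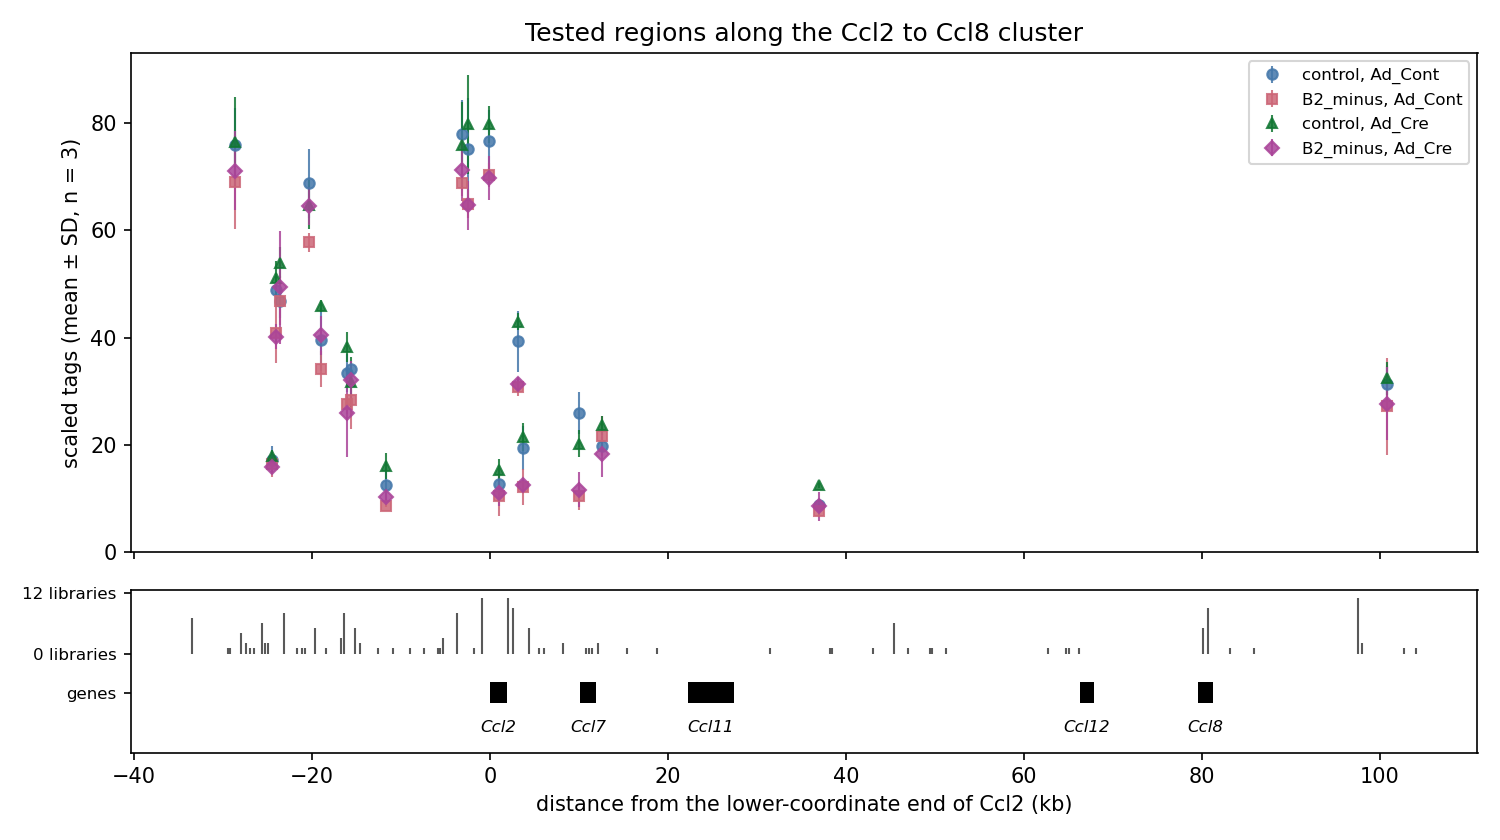
Upper panel: scaled tags (mean ± SD, n = 3 libraries) of the 19 tested regions in the 4 groups, plotted by distance in kb from the lower-coordinate end of Ccl2. Lower panel: gene bodies as boxes and the other 63 regions as lines whose height is the number of libraries that list them. Most tested regions lie at Ccl2 and up to 28434 bp below it, and none is assigned to Ccl12.

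The promoter sequences available from RefSeq (GRCm38.p6, + strand) covered 2 of the 5 members, Ccl12 and Ccl8, and are shown because few or no libraries listed a peak there. Shown 5′ to 3′ are the 250 bases before each start, chr11:82101595-82101844 for Ccl12 and chr11:82114935-82115184 for Ccl8. Capitals mark the TATA box letters TATAAA.
Ccl12: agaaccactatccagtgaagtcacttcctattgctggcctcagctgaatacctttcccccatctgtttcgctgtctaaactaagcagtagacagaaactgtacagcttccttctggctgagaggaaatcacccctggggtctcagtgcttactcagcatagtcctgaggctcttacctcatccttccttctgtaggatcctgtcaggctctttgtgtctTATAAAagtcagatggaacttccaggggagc
Ccl8: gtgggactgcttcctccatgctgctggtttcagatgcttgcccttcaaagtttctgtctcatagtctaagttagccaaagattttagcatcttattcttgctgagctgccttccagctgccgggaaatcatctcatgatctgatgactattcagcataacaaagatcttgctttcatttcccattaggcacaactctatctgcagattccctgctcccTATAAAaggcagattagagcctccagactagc

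Both promoters hold TATAAA close to the start, with the match beginning 31 bases before it in Ccl12 and 32 bases before it in Ccl8. Counting either strand, 13.7% of 32619 mouse promoter windows of 300 bases (250 before to 50 after the start) hold these letters. Neither window holds the AP-1 letters TGANTCA (7.85% of windows), the xenobiotic response element core GCGTG bound by AhR with its partner (32.6%), or the NF-kB consensus (8.51%). The last was searched as its usual degenerate 10-letter form. A peak overlapped the Ccl12 window in 1 library and the Ccl8 window in 0 of 12. Among all windows, 43.8% overlapped a region listed in all 12 libraries and 44.7% overlapped either no region or one listed in a single library.

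At the lower-coordinate end of Ccl7, which encodes a monocyte chemoattractant also called MCP-3, accessibility was lower in B2_minus than in control libraries in both Ad arms. The region (82045483 to 82045795) crosses that end. Its 12 peaks are centred 17 to 130 bp below it, and 5 of the 12 reach into the gene. With Ad_Cont, control libraries held 29.8, 21.9 and 25.9 scaled tags and B2_minus libraries 13.4, 9.59 and 8.42. With Ad_Cre, control libraries held 19.8, 17.9 and 22.8 and B2_minus libraries 9.39, 15.3 and 9.97. The B2_minus libraries lay below every control library within each arm, and the lowest of them came near the bottom of the peak lists.

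The Ad_Cont difference at the lower end of Ccl7, a mean of 25.9 ± 3.97 against 10.5 ± 2.63 (SD, n = 3), is the value that chose the cluster and is given without a test. Its log2 fold change was -1.26 (SE 0.241). In the Ad_Cre libraries the means were 20.2 ± 2.46 in control and 11.6 ± 3.27 in B2_minus, a log2 fold change of -0.80 (SE 0.244). That difference did not pass (edgeR adjusted p 0.0737). Leaving out 1 Ad_Cre library at a time gave log2 fold changes of -0.69 to -1.06 and edgeR adjusted p of 0.0569 to 0.278. With the variance bounded at Poisson, the edgeR adjusted p was 0.513. In a bulk preparation, fewer cells with open chromatin and less access per cell cannot be told apart.

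**Figure D2:**
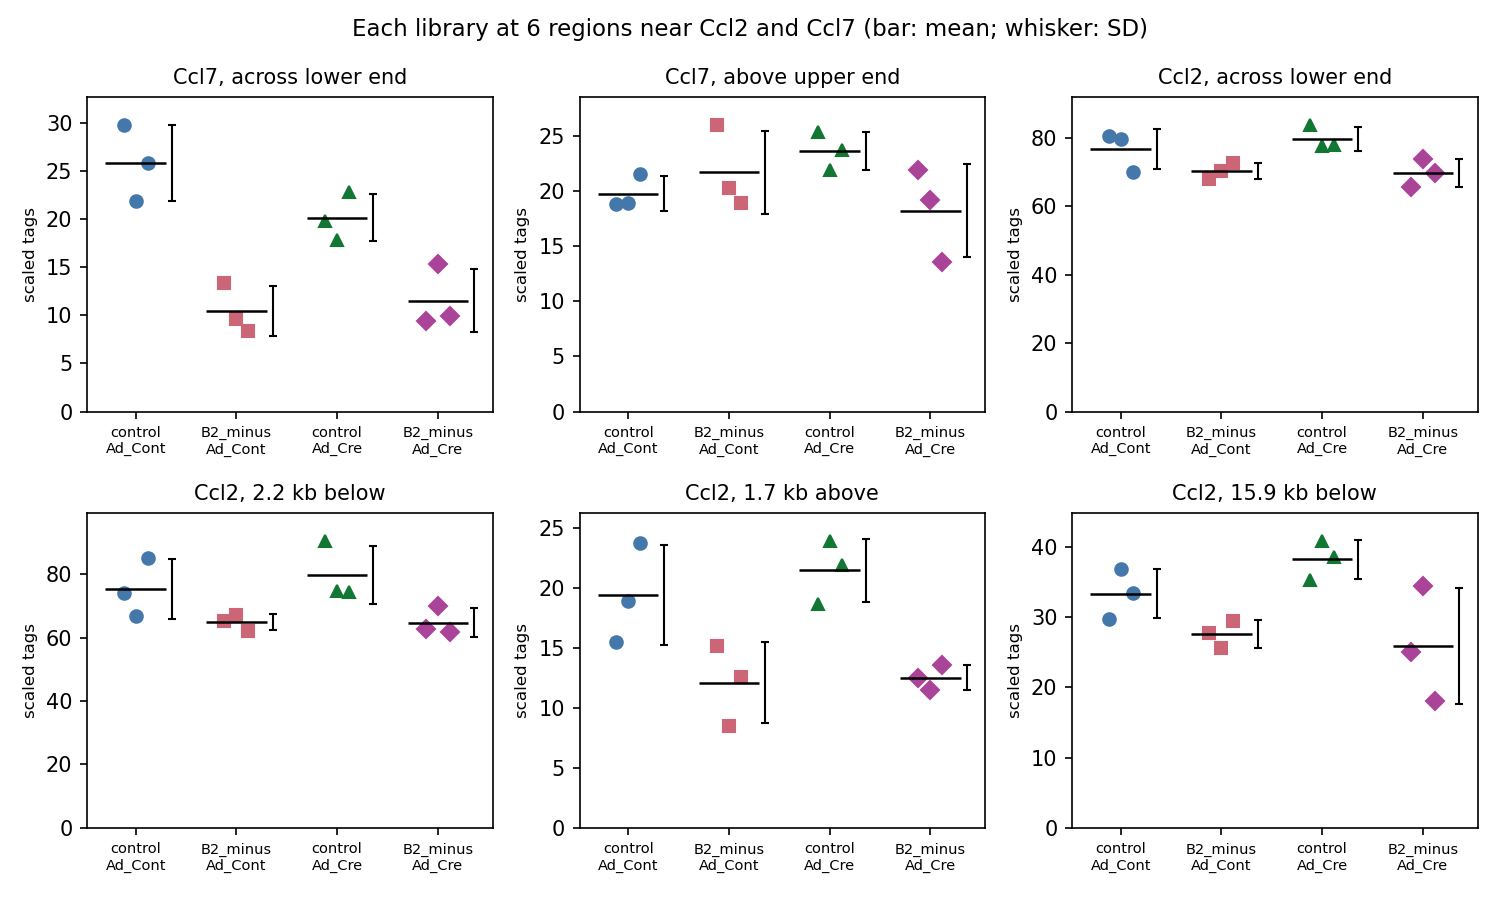
Scaled tags per library at 6 regions of the chemokine cluster, with each point 1 library, bars at the group mean and whiskers of 1 SD (n = 3), and the y axis from 0. At the lower end of Ccl7 the B2_minus libraries lie at 8.42 to 15.3 and the control libraries at 17.9 to 29.8.

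At the other end of Ccl7 the groups overlapped in both arms. A region 539 bp above the gene (82048064 to 82048374) held 18.8, 18.9 and 21.6 scaled tags in control and 26, 20.3 and 18.9 in B2_minus libraries with Ad_Cont. With Ad_Cre the values were 25.4, 21.9 and 23.7 in control and 21.9, 19.2 and 13.6 in B2_minus libraries. No order of the groups held across the arms there. The log2 fold change was 0.15 (SE 0.218) with Ad_Cont and -0.38 (SE 0.213; edgeR adjusted p 0.434) with Ad_Cre.

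Ccl2 encodes MCP-1, the main ligand of CCR2, and 2 regions just above the gene had lower values in every B2_minus library than in any control library of the same arm, without passing the test. Just above the upper end, 1731 bp away, a region (82039183 to 82039472) held 15.5, 18.9 and 23.8 scaled tags in control and 15.2, 8.53 and 12.6 in B2_minus libraries with Ad_Cont. With Ad_Cre it held 18.7, 23.9 and 21.9 in control and 12.5, 11.5 and 13.6 in B2_minus libraries. The groups did not overlap in either arm, though with Ad_Cont the nearest values were 15.5 and 15.2. The log2 fold change was -0.65 (SE 0.248) with Ad_Cont and -0.78 (SE 0.234) with Ad_Cre, and the latter did not pass (edgeR adjusted p 0.0695).

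A stronger region 1087 bp above Ccl2 (82038539 to 82038836) also separated the groups in both arms. It held 45.3, 33.8 and 38.9 scaled tags in control against 29.6, 29.8 and 32.6 in B2_minus libraries with Ad_Cont. With Ad_Cre it held 44.1, 43.7 and 41.2 against 31.3, 32.6 and 29.9. These are log2 fold changes of -0.35 (SE 0.154) and -0.46 (SE 0.146; edgeR adjusted p 0.0945).

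The strongest accessibility at the gene itself lay across the lower end of Ccl2 (82035376 to 82035669), and there the difference was small. Control libraries held 80.7, 79.6 and 70.2 scaled tags and B2_minus libraries 68.1, 70.4 and 72.6 with Ad_Cont. With Ad_Cre, control libraries held 83.8, 77.6 and 78 and B2_minus libraries 65.7, 73.8 and 69.8. The groups overlapped with Ad_Cont but not with Ad_Cre. The log2 fold changes were -0.13 (SE 0.0938) and -0.19 (SE 0.0906; edgeR adjusted p 0.348).

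The inside and the upper end of Ccl2 were weakly open. The tested region inside the gene (82035888 to 82037372) had means of 12.7 ± 1.51 in control and 10.4 ± 3.72 in B2_minus libraries with Ad_Cont, and of 15.2 ± 2.12 and 11 ± 2.5 with Ad_Cre (SD, n = 3). The next region (82037388 to 82037900) crosses the upper end and was listed in 11 of 12 libraries, so it was not tested. Merging peaks up to 100 bp apart joined both with the next one up into 1 region (82035888 to 82038411) listed in every library. Its highest peaks held 23.9 ± 1.59 against 14.8 ± 3.24 scaled tags with Ad_Cont and 23.1 ± 1.99 against 15.3 ± 2.49 with Ad_Cre, control first (SD, n = 3). In both arms every B2_minus library was below every control library in that joined region. The highest peak came from different sites of it in different libraries, however. Peaks were merged in this way only around the cluster, so no genome-wide share stands beside this separation.

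Below Ccl2, toward Asic2, 11 tested regions stretch from 2231 to 28434 bp away, with log2 fold changes of -0.63 to 0.01 with Ad_Cre. The region 15892 bp away (82019421 to 82019685) had the lowest adjusted p of the cluster. It held 29.8, 36.8 and 33.5 scaled tags in control and 27.8, 25.6 and 29.5 in B2_minus libraries with Ad_Cont. With Ad_Cre it held 35.3, 40.8 and 38.6 in control and 25, 34.5 and 18.1 in B2_minus libraries. The groups stood apart in both arms, but the Ad_Cre B2_minus libraries were widely spread.

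At this region the log2 fold change was -0.28 (SE 0.173) with Ad_Cont and -0.57 (SE 0.166) with Ad_Cre, which missed the threshold (edgeR adjusted p 0.0574). Without B2_minus Ad_Cre replicate 2 it passed, at -0.84 (edgeR adjusted p 0.0203). Without replicate 3 of that group it was -0.35 (edgeR adjusted p 0.42). The call at this region thus turned on single libraries, and the adjusted p reached 0.498 with edgeR bounded at Poisson variance.

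A weak region 11436 bp below Ccl2 (82023741 to 82024141) also separated the groups in both arms, with means of 12.4 ± 2.9 against 8.63 ± 0.287 with Ad_Cont and 16 ± 2.48 against 10.3 ± 0.662 with Ad_Cre (SD, n = 3). The B2_minus values there are close to the lowest listed counts, which bound the difference. Its log2 fold change with Ad_Cre was -0.63 (SE 0.237; edgeR adjusted p 0.182). The regions 2231 and 23850 bp below the gene were lower in B2_minus without overlap with Ad_Cre, while their Ad_Cont groups overlapped. The nearer one (82032948 to 82033346) gave a log2 fold change of -0.29 (SE 0.0952; edgeR adjusted p 0.104) with Ad_Cre and -0.21 (SE 0.0991) with Ad_Cont. The farther one (82011455 to 82011727) gave -0.34 (SE 0.127; edgeR adjusted p 0.172) and -0.26 (SE 0.131).

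Several regions below Ccl2 showed little difference with Ad_Cre. The farthest tested region, 28434 bp away (82006824 to 82007143), held 86, 73.6 and 70.1 scaled tags in control and 66.8, 67 and 79.8 in B2_minus libraries, a log2 fold change of -0.09 (SE 0.0947; edgeR adjusted p 0.754). The region 20117 bp away (82015147 to 82015460) had means of 64.8 ± 4.54 and 64.6 ± 3.56 (SD, n = 3). The region 15426 bp away (82019868 to 82020151), with 31.7 ± 4.69 and 32 ± 3.7, was the only 1 of the 19 whose Ad_Cre fold change was not below 0. It is the next tested region above the one with the lowest adjusted p. The region 3041 bp away (82032271 to 82032536) had 75.9 ± 8.05 and 71.3 ± 5.82. In these 4 regions the Ad_Cre groups overlapped. With Ad_Cont, described without a test, the regions 20117 and 3041 bp away were lower in B2_minus without overlap. Their Ad_Cont log2 fold changes were -0.25 (SE 0.104) and -0.18 (SE 0.0953). The regions 28434 and 15426 bp away overlapped with Ad_Cont too, at -0.14 (SE 0.0984) and -0.26 (SE 0.168).

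The last 3 tested regions below Ccl2 lie 18847, 23482 and 24194 bp away. Their Ad_Cre log2 fold changes were -0.18 (SE 0.133), -0.14 (SE 0.12) and -0.19 (SE 0.23), and none passed in edgeR (adjusted p 0.613, 0.661 and 0.788, in that order).

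Beyond Ccl7 the cluster had few constant sites. Ccl11 had 1 tested region, 9437 bp above the gene (82072392 to 82072703). It held 8.84, 8.96 and 8.64 scaled tags in control and 8.06, 6.4 and 8.42 in B2_minus libraries with Ad_Cont. With Ad_Cre it held 12.1, 12.9 and 12.3 in control and 11.5, 7.66 and 6.35 in B2_minus libraries. The groups did not overlap in either arm, yet most values sit at the bottom of the peak lists. The log2 fold change with Ad_Cre was -0.56 (SE 0.24; edgeR adjusted p 0.258).

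Ccl8, which encodes the chemokine MCP-2, had its tested region 19427 bp above the gene (82136226 to 82136534). It held 34.2, 28.8 and 34.2 scaled tags in control and 35.5, 23.9 and 23.6 in B2_minus libraries with Ad_Cre, and the groups overlapped. The log2 fold change was -0.24 (SE 0.175; edgeR adjusted p 0.588) with Ad_Cre and -0.22 (SE 0.182) with Ad_Cont. A weak region inside Ccl8 (82116103 to 82116506) was listed in 9 libraries: 3 and 3 of the control groups, and 1 with Ad_Cont and 2 with Ad_Cre of the B2_minus groups. Other untested regions ran differently. A Ccl11 region (82080819 to 82081128) was listed in 1 control and 3 B2_minus libraries with Ad_Cont, and in 2 and 0 with Ad_Cre. A Ccl2 region (82012132 to 82012657) was listed in 2 control and 3 B2_minus libraries with Ad_Cont, and in 1 and 2 with Ad_Cre. At Ccl12, also a CCR2 ligand, no region was listed in more than 1 library.

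Across the 19 tested regions with Ad_Cre, 18 log2 fold changes were below 0 (94.7%, against 49.4% of all 101575 regions), and the median was -0.29 (0.00 over all regions). In 12 of the 19 the 3 B2_minus libraries all lay below the 3 control libraries, and in 0 all above. Over the genome, 8.95% of regions separated that way downward and 8.54% upward. Of the 12, 10 belong to Ccl2, 1 to Ccl7 and 1 to Ccl11. By edgeR, 0 of 19 passed the adjusted threshold, against 1.13% of all regions called (0.773% lower and 0.353% higher). At an unadjusted p under 0.05, 9 of 19 were lower and 0 higher, against 7.16% and 6.18% of all regions. The 19 regions are neighbours measured in the same libraries, so they are not independent of each other. Their counts beside the genome shares are descriptions, and the cluster was set with earlier results known.

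Counts by other tools at an unadjusted p under 0.05 with Ad_Cre were 9 by limma, 7 by edgeR bounded at Poisson variance and 3 by DESeq2. Over all 101575 regions, in either direction, the same tools gave 12733, 6107 and 2384, in that order, against 13557 by the main edgeR fit. Each of these tools also called 0 of 19. With edgeR on all regions listed in at least 3 libraries, 15 of the same 19 were below 0, and 5 were lower at an unadjusted p under 0.05. Their median was then -0.19, against -0.01 over all 252554 regions of that setting. Where library sizes were taken from the listed tags without TMM, 15 of 19 were below 0 with a median of -0.16, but the median of all regions then stood at 0.14. That scaling gave 4111 regions higher and 484 lower over the genome, against 359 and 785 with TMM. A change of library sizes shifts all regions by nearly the same amount. It therefore cannot show whether the cluster's median differs from that of all regions.

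With Ad_Cont, where the cluster was chosen, 17 of 19 log2 fold changes were below 0 (48.8% of all regions), and the median was -0.22 (0.01 over all). The groups separated downward in 8 of 19, against 8.63% of regions over the genome (8.64% upward), a count from which nothing is read.

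**Figure D3:**
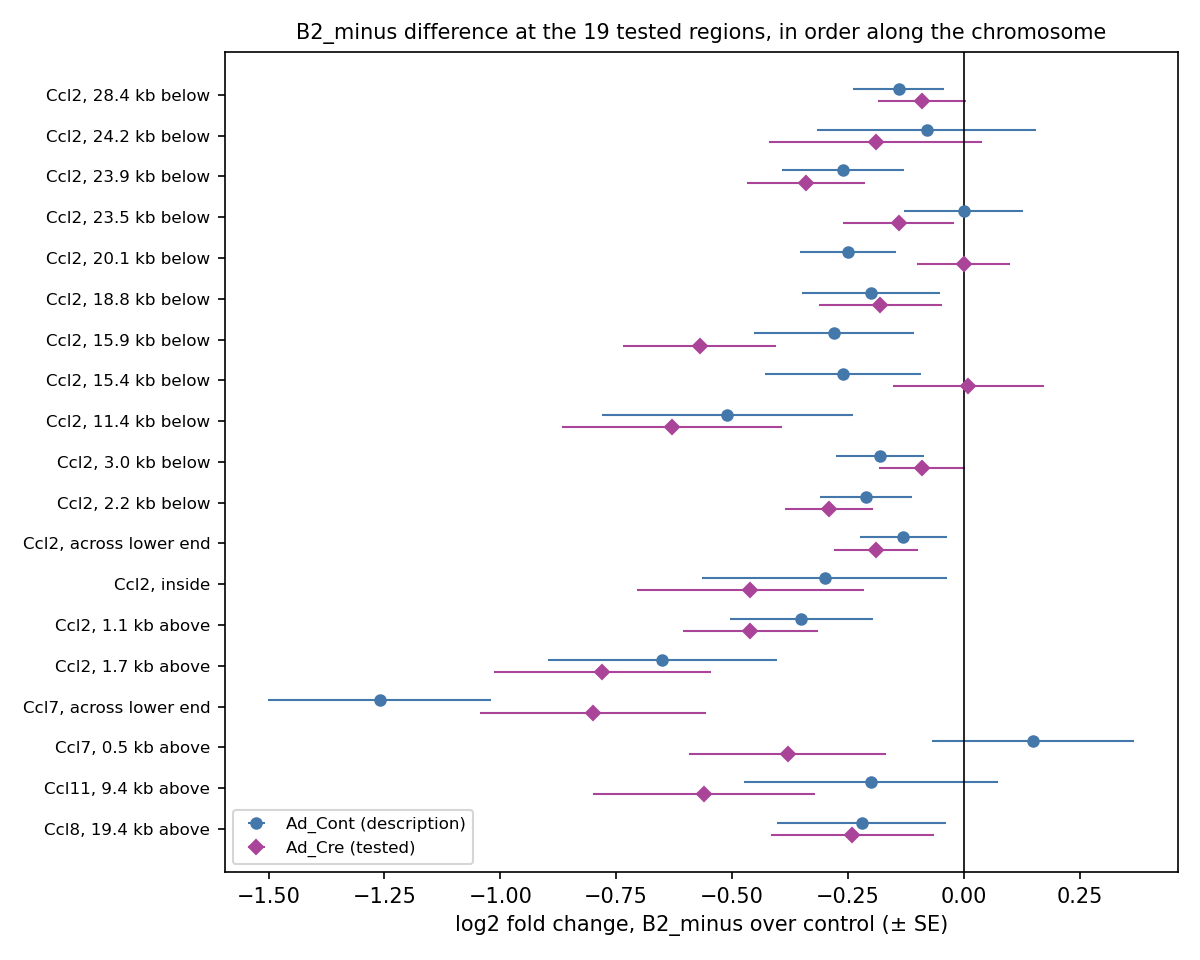
Log2 fold change of B2_minus against control with 1 SE for each of the 19 tested regions of the cluster in chromosome order, with Ad_Cont and Ad_Cre side by side. The region at the lower end of Ccl7 has the lowest value in both arms (-1.26 and -0.80), and 18 of 19 Ad_Cre values are below 0.

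Summed over the 19 tested regions, control libraries held 751 to 775 scaled tags and B2_minus libraries 648 to 661 with Ad_Cont. With Ad_Cre the sums were 782 to 831 in control and 651 to 692 in B2_minus libraries. These sums, dominated by the strong Ccl2 regions, did not overlap between B2_minus and control libraries in either arm.

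The number of cluster regions listed also differed. Control libraries listed 31 to 40 of the 82 regions with Ad_Cont and 36 to 46 with Ad_Cre, whereas B2_minus libraries listed 28 to 30 and 30 to 33. Of the 38 regions seen in 1 library only, 23 came from control Ad_Cre, 9 from control Ad_Cont, 3 from B2_minus Ad_Cont and 3 from B2_minus Ad_Cre libraries. The split of such regions by group over the genome was not taken. Nothing particular to the cluster is therefore read from these counts. With Ad_Cre the genome-wide lists were also longer in control (254160 to 281141 peaks) than in B2_minus libraries (207948 to 235220), and the part of list length in the Ad_Cre counts was not tested. With Ad_Cont the list lengths overlapped (200698 to 265511 and 206940 to 225584). The shortest list of all, 200698 peaks in control Ad_Cont replicate 1, held 32 cluster regions, against 28 to 30 in B2_minus Ad_Cont libraries. The part of list length in the Ad_Cont counts was not tested either.

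**Figure D4:**
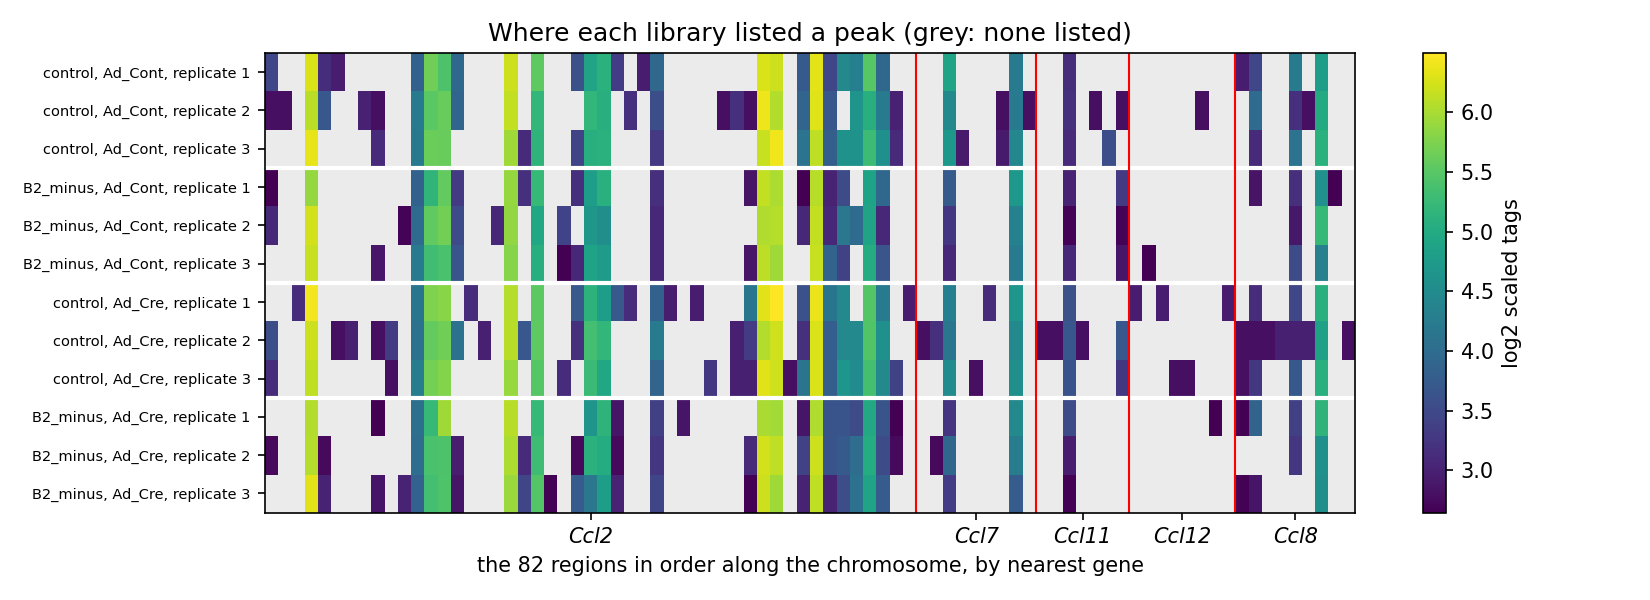
Log2 scaled tags of each of the 82 cluster regions (columns, in chromosome order and split by nearest gene) in each of the 12 libraries (rows), with grey where a library lists no peak. Full columns are the 19 tested regions, mostly at Ccl2, and the scattered cells of Ccl12 are its 8 regions of 1 library each.

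The Ad_Cre and Ad_Cont libraries of one B2 group are compared here by value only, since the Ad_Cont libraries chose the cluster. At the lower end of Ccl7 the log2 fold change of Ad_Cre over Ad_Cont was -0.34 (SE 0.205) in control and 0.12 (SE 0.288) in B2_minus libraries. The B2_minus effect there was less negative with Ad_Cre by 0.46 (SE 0.354), a difference of about its own error. At the Ccl2 region 15892 bp below the gene the same difference was -0.29 (SE 0.241), in the opposite direction. At the Ccl2 lower end it was -0.06.

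The limits of the cluster are set by its neighbours rather than by the 50 kb rule. The outermost region on the lower side, 33290 bp below Ccl2 (82002015 to 82002287), was listed in 7 libraries. The nearest tested region outside it (81996284 to 81996547) belongs to Asic2, an acid-sensing ion channel gene, 27888 bp away, and had means of 22.2 ± 1.39 in control and 20.4 ± 3.49 in B2_minus libraries with Ad_Cre. On the upper side the next gene is Ccl1, another CC chemokine, 59.9 kb from Ccl8. Its 3 tested regions had Ad_Cre log2 fold changes of -0.28, -0.05 and -0.16, with edgeR adjusted p of 0.364, 0.929 and 0.81. Within 100 kb of the cluster 6 outside regions were tested, with Ad_Cre log2 fold changes of -0.28 to 0.21. All were below 0 except the region at 82235616 to 82235891, so values below 0 were not confined to the members.

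Among the other CC chemokine genes, 11 of 16 had a tested region (24 regions, median log2 fold change -0.19 with Ad_Cre and -0.16 with Ad_Cont). Of the 24, 1 was called lower with Ad_Cre and 1 with Ad_Cont (0.773% and 0.618% of all regions), and 0 higher. Calls in either direction with Ad_Cont made up 1.04% of all regions, and higher calls 0.421%. Both belong to Ccl20, whose product attracts cells through CCR6. The Ccl20 region on chromosome 1 at 83099669 to 83100076 fell from 53.9 ± 4.68 to 37.7 ± 4.46 scaled tags with Ad_Cre (SD, n = 3; log2 fold change -0.52, SE 0.13; edgeR adjusted p 0.0224). The region at 83119909 to 83120192 fell from 43.3 ± 2.45 to 29.2 ± 5.29 with Ad_Cont (edgeR adjusted p 0.0371). With edgeR bounded at Poisson variance and with DESeq2, 0 of the 24 were called in either arm, and leaving out 1 library gave 0 or 1 in each.

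CC chemokine receptor genes had 30 tested regions in 10 of 14 genes, with none for Ccr2 and Ccr3. Of the 30, 0 were called in either arm (medians -0.01 with Ad_Cre and 0.03 with Ad_Cont), against 1.13% and 1.04% of all regions. Genes for regulators of chemokine induction had 253 tested regions in 25 of 25 genes. Of the 253, 1 was lower with Ad_Cre and 2 with Ad_Cont, against 0.773% and 0.618% of all regions. Nothing about that list as a whole is read from these counts. A region 14618 bp from Irf1, an interferon-response transcription factor, on chromosome 11 at 53755037 to 53755396, fell in both arms. With Ad_Cre it fell from 22 ± 2.19 to 9.99 ± 0.426 (SD, n = 3; log2 fold change -1.13; edgeR adjusted p 0.0061), and with Ad_Cont from 23.6 ± 0.362 to 12.3 ± 0.497 (log2 fold change -0.93; edgeR adjusted p 0.0221). The other Ad_Cont region belongs to Tnfaip3, a brake on NF-kB, which was named after its value was seen (log2 fold change -0.71; edgeR adjusted p 0.0107). The bounded edgeR and DESeq2 called 0 of the 253 in either arm, and without 1 Ad_Cont library the Ad_Cont count was 0 or 1.

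Summed marker signals of some other liver cells also differed between B2_minus and control libraries. The summed scaled tags over 29 stellate cell and myofibroblast marker regions were 759 to 776 in control and 675 to 713 in B2_minus libraries with Ad_Cont, and 757 to 819 and 657 to 715 with Ad_Cre. Over 33 cholangiocyte marker regions they were 974 to 1003 and 904 to 954 with Ad_Cont, and 947 to 1024 and 890.4 to 920.5 with Ad_Cre. Both lists were lower in B2_minus libraries without overlap in each arm, as the cluster's sum was.

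By edgeR with Ad_Cre, 1 of 29 stellate cell regions was called lower, at Lrat (log2 fold change -0.82), and 3 of 33 cholangiocyte regions, at Krt7 (-0.92), Krt19 (-0.91) and Spp1 (-1.17), against 0.773% of all regions. Called higher were 2 of 50 endothelial regions, both at Stab2 (1.01 and 0.81), and 1 of 93 hepatocyte regions, at Hnf4a (0.65), against 0.353% of all regions. The stellate, cholangiocyte and hepatocyte counts were 0 with edgeR bounded at Poisson variance, with DESeq2 and with summed peaks, and each was 0 without control Ad_Cre replicate 3, B2_minus Ad_Cre replicate 2 or B2_minus Ad_Cre replicate 3. The endothelial count was 1 with the bounded edgeR and 0 with DESeq2. With Ad_Cont, 3 of 50 endothelial regions were called higher and 2 lower, against 0.421% and 0.618% of all regions. The higher ones were at Kdr (log2 fold change 1.01) and Stab2 (1.08 and 0.80). The lower ones were at Flt1 (-1.13) and Stab2 (-1.04), with Ad_Cre values of -0.94 and -0.85. These Ad_Cont counts were 1 and 0 with the bounded edgeR, and 0 each with DESeq2.

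Endothelial marker sums overlapped with Ad_Cont (1260.0 to 1321 in control and 1304 to 1335 in B2_minus libraries) and were higher in B2_minus libraries with Ad_Cre (1271 to 1317 and 1319 to 1349). Hepatocyte marker sums were higher in B2_minus libraries in both arms, at 2538 to 2593 in control and 2609.6 to 2695 in B2_minus libraries with Ad_Cont and 2448 to 2527 and 2613 to 2671 with Ad_Cre. Kupffer cell and macrophage markers had 14 tested regions in 5 of 10 genes. Their sums were 348 to 376 in control and 376 to 386 in B2_minus libraries with Ad_Cont, and overlapped with Ad_Cre (379.8 to 401 and 376 to 396). Of the Kupffer cell and macrophage genes, Clec4f, Adgre1, Timd4, Lyz2 and Vsig4 had no region listed in all libraries. The part of these cell types in the cluster's differences was not tested.

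Over the 12 libraries, the log2 scaled tags of the lower end of Ccl7 ran most closely with regions at C2cd2 (Pearson r 0.96), Elf4 (0.95), Ctif, Slc6a19, Dmrt1 and Slc27a3 (0.94 each), and with 4 regions that have no gene within 50 kb. These correlations are descriptions over libraries that share the 4 groups and their depths. Within the cluster the closest were the Ccl2 regions 1087 bp above (0.79), 2231 bp below (0.73), and 1731 bp above and 23850 bp below the gene (0.72 each). The region at the other end of Ccl7 stood at 0.27, below most Ccl2 regions, the Ccl8 region at 0.33 and the Ccl11 region at 0.39.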

How the data were processed

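ATAC-seq peak lists of 12 mouse hepatocyte libraries (4 groups of 3, by title) were used; 8 HepG2 libraries of the series were not analysed here. Per the submitters' processing notes, Bowtie2, HOMER and the builds mm10 and hg38 were used, without versions or roles. Not given in the sources used here are read shifting, duplicate handling and peak thresholds. Each file deposited by the authors lists 200 bp peaks with a whole-number tag count. That these counts are unscaled was inferred from the values. Lists start at 6 to 8 tags, so weaker sites are missing rather than 0, and total sequencing depth is unknown.

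Peaks overlapping by at least 1 bp were merged, with 0.151% left out (chromosome Y or unplaced sequences). A library's value is its highest peak count in a region, and scaled tags are counts corrected by TMM library sizes to the depth of an average library. Genes came from RefSeq's GRCm38.p6 table (nearest protein-coding body within 50 kb), and promoter sequences from RefSeq. Regions with a peak in all 12 libraries were tested with edgeR 4.0.16 in R 4.3.3 (quasi-likelihood F test, glmQLFit with legacy set to FALSE, 4 groups with a shared spread), with Benjamini-Hochberg adjustment over 101575 regions and a threshold of 0.05. That form lets variance fall below Poisson. It was taken over from an earlier treatment of these data that chose it after seeing results, and the bounded form is an alternative. Limma 3.58.1 on log2(tags + 1) and DESeq2 1.42.0 were other alternatives. The edgeR step was run on simulated Poisson counts with set fold changes. Such counts cannot show whether calls that rest on variance below Poisson hold. Tables and plots used Python 3.11.15.

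The cluster, its members and the gene lists were chosen with earlier results of these data known. Named by rule are all member regions tested, chemokine-list regions called with Ad_Cre, flanking genes and the 10 regions most correlated with the Ccl7 region. Marker genes called with Ad_Cre, and the Ccl20, Tnfaip3 and endothelial regions called with Ad_Cont, were named after their values were seen.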

Additional observations from a re-analysis of the deposited data

How the results depend on the processing

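Tests cover only regions listed in all 12 libraries, and values near 6 to 8 tags are bounded by the lists, which limits the Ccl11 region and the B2_minus side of Ccl7. Over the genome, calls with Ad_Cont numbered 1056 and fell to 17 with edgeR bounded at Poisson variance, 30 with peaks summed per region, 27 with regions listed in at least 3 libraries and 0 with DESeq2. The Ad_Cre calls numbered 1144 and became 18, 25, 33 and 0 in the same order, and 4595 with library sizes from listed tags (4111 higher and 484 lower, against 359 and 785). With those sizes Ad_Cont gave 662 higher and 326 lower, against 428 and 628. Leaving out 1 library gave 264 to 562 calls with Ad_Cont and 350 to 582 with Ad_Cre. The cause of these shifts was not tested. Members called lower with Ad_Cre numbered 0 to 1 when 1 library was left out. The map of 82 regions shrank to 38 within 10 kb, 30 listed in at least 6 libraries and 19 in all 12.

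Of the member fold changes with Ad_Cre, 252 alternative values kept their direction and side of the threshold, 13 changed sign and 1 passed. The sign changes were at Ccl2 regions near 0. With listed-tag sizes and with regions in at least 3 libraries, the region 28434 bp below went to 0.05 and 0.01, that 20117 bp below to 0.13 and 0.10, and that 3041 bp below to 0.05 and 0.01. Leaving out 1 library moved the region 20117 bp below between -0.07 and 0.04, and that 15426 bp below between -0.07 and 0.12.

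No pairing by replicate number was visible in the values. Deviations correlated between -0.016 and 0.0123 over 18 same-number pairs and between -0.0135 and 0.0142 over 36 others. Whether libraries of the same number shared an origin is not in the labels, and these correlations cannot settle it. With a replicate block, 1053 and 1172 regions were called with Ad_Cont and Ad_Cre, and 0 members with Ad_Cre.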
